A study of Drosophila melanogaster with 4 samples.

Results

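The larval cuticle protein genes Lcp1, Lcp2, Lcp3, Lcp4 and Lcp9 and the pupal cuticle protein gene Pcp of Drosophila melanogaster were found by their RefSeq transcript accessions in a deposited gene table. The table holds 16198 loci, and each of these 6 genes had 1 row. RNA came from whole third-instar larvae at 100 h after egg laying, in 2 libraries labelled wildtype and 2 labelled kr-h1 mutant, the latter described as kr-h1[7] homozygotes. No transgene, drug or other agent is named for either group, and the labels give neither the wildtype strain nor the number of larvae per library. The authors combined each group into 1 FPKM value per locus (a fragment count scaled to transcript length and library size). No value below therefore carries a replicate error, and the depth of the libraries is unknown.

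Insect cuticle is a layered material of chitin fibres and proteins that the epidermis secretes at each moult and thickens between moults. Most cuticle proteins carry the Rebers-Riddiford domain, which binds chitin, and different members of the family are made at different stages and in different body regions. Lcp1 to Lcp4 are major proteins of the soft third-instar larval cuticle, Lcp9 was also isolated from larval cuticle, and Pcp belongs to the pupal cuticle. Their genes respond to the moulting hormone ecdysone through a cascade of transcription factors. The zinc-finger protein Kr-h1 (Krüppel homolog 1) is induced by juvenile hormone and acts against metamorphic gene programmes.

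Kr-h1 itself was 3.28-fold higher under the mutant label, at 9.79 FPKM against 2.98 FPKM under the wildtype label. Whether the allele is still transcribed is not stated in the labels. Directions below therefore rest on the labels, and larvae are called wildtype-labelled or mutant-labelled. A locus is called higher or lower where the Cuffdiff q-value in the authors' deposited table is at most 0.05. By that rule 13.0% of the 7058 tested loci were called, 8.73% lower and 4.32% higher in mutant-labelled larvae. Calls were far more frequent among abundant loci: of the 142 tested loci with a mean of at least 1000 FPKM, 57.7% were called, 33.1% lower and 24.6% higher.

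The larval Lcp genes were among the most abundant transcripts in both groups. Lcp3, Lcp2 and the row of Lcp9 were called lower in mutant-labelled larvae, by between 1.11-fold and 1.58-fold. Lcp1, Lcp4 and Pcp were not called. All 6 rows were tested by the authors, so 3 of 6 (50.0%) were called lower and 0 higher (0 also at an unadjusted p under 0.05 or by the normal p-value described below), with a median log2 ratio of -0.21 against -0.03 over all tested loci. Log2 ratios here are mutant-labelled over wildtype-labelled FPKM with a pseudocount of 1. The 5 larval genes lie above 1000 FPKM, where 3 of 5 (60.0%) lower calls stand beside 33.1% of all loci of that abundance. With so few genes, the count of lower calls does not set the family apart from other abundant transcripts.

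**Figure D1:**
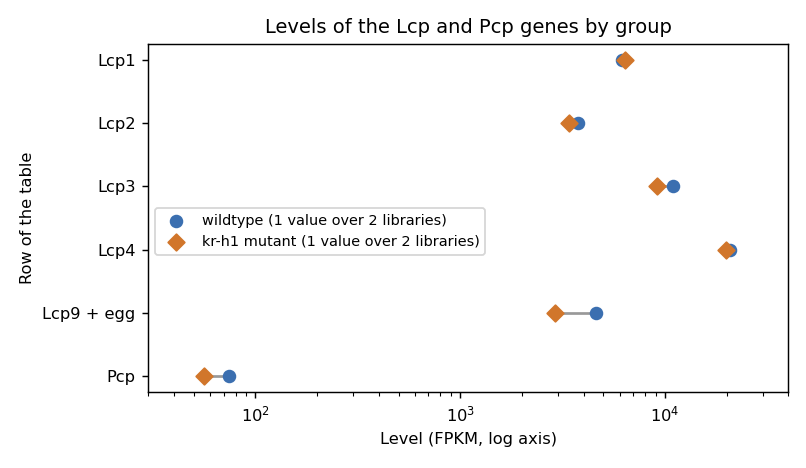
Level of each gene in FPKM on a log axis, with 1 deposited value per group over its 2 libraries and no error bar because no value per library is given. The markers nearly coincide for Lcp1 and Lcp4 and lie farthest apart for the row of Lcp9 with egg (4597 and 2912 FPKM).

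Lcp4 had the highest value of any row in the table, at rank 1 in both groups (20804 FPKM under the wildtype label, 19773 FPKM under the mutant label). It held 3.67% of the summed FPKM in the wildtype-labelled and 3.64% in the mutant-labelled group. Its log2 ratio of -0.07 was not called, with a q-value of 0.170 and an unadjusted p-value of 0.0405 from Cuffdiff in the authors' deposited table. The row at rank 2 in both groups was Lcp3, the neighbour of Lcp4 on the chromosome. Its level went from 10964 to 9133 FPKM, a fall of 1831 FPKM. This was 1.20-fold lower (log2 ratio -0.26), and the authors' deposited table gives a Cuffdiff q-value of 0.000889. That q-value is the smallest the table holds, shared by every locus at its smallest p-value of 5e-05.

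Lcp1 stood at rank 5 in both groups, with 6132 FPKM under the wildtype label and 6406 FPKM under the mutant label. It was the single gene of the 6 with a higher value under the mutant label (log2 ratio 0.06), and it was not called (Cuffdiff q-value 0.232 in the authors' deposited table). Lcp2, which is transcribed in the same direction as Lcp1, had 3754 and 3387 FPKM and stood at ranks 14 and 12. The decrease of 1.11-fold (log2 ratio -0.15) was called at a q-value of 0.00163 by Cuffdiff in the authors' deposited table. The deposited test statistic for Lcp2 was -2.10, and a two-sided normal p-value taken from that statistic gave 0.661 after Benjamini-Hochberg adjustment, so the call for Lcp2 depends on how the authors' software turned its statistic into a p-value. Lcp3 and the row of Lcp9 were called either way, with adjusted normal p-values of 3.66e-06 and 1.51e-10 from the statistics in the authors' deposited table.

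Of the 6 rows, that of Lcp9 showed the lowest log2 ratio, -0.66. Its level fell from 4597 FPKM (rank 11) to 2912 FPKM (rank 16), or by 36.6% (q-value 0.000889, Cuffdiff, in the authors' deposited table). Among the 142 tested loci of at least 1000 FPKM, this row had the 6th lowest log2 ratio, whereas Lcp3 had the 26th, Lcp2 the 38th, Lcp4 the 58th and Lcp1 the 94th. The row also contains egg (eggless), which encodes a histone H3 lysine methyltransferase and lies 77 bases from Lcp9 on the same strand. The deposited value covers both genes, and their shares cannot be separated. An antisense RNA listed at the same locus, asRNA:CR44067, had 0 and 0.814 FPKM and was not tested. Fewer cells of a type and less RNA per cell cannot be told apart in whole-larva RNA, for this row and for all others.

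Pcp was expressed at a far lower level than the larval genes, with 74.6 FPKM in wildtype-labelled larvae (rank 849) and 56.4 FPKM in mutant-labelled larvae (rank 1033). The log2 ratio of -0.40 was not called, with a q-value of 0.169 and an unadjusted p-value of 0.0401 from Cuffdiff in the authors' deposited table. Lcp4 exceeded Pcp 279-fold in the wildtype-labelled and 351-fold in the mutant-labelled group. Of the 3104 tested loci between 10 and 100 FPKM, which is the range of Pcp, 14.4% were called, 9.86% lower and 4.51% higher. Pcp lies inside another gene: at positions 7021682 to 7022470 of chromosome arm 2L (Release 6), it sits within intron 1 of all 3 annotated transcripts of Gart, on the opposite strand. Gart encodes a trifunctional enzyme of purine synthesis. Its exons overlap Pcp by 0 bases. The Gart row, at 11.6 and 13.5 FPKM, was not called (Cuffdiff q-value 0.688 in the authors' deposited table). Another row that overlaps the row of Pcp, CG43322, had 1.26 and 0.584 FPKM and was not tested. The strand setting of the counting is not given in the sources used here, and without strand, fragments from this Gart intron and from Pcp cannot be told apart.

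**Figure D2:**
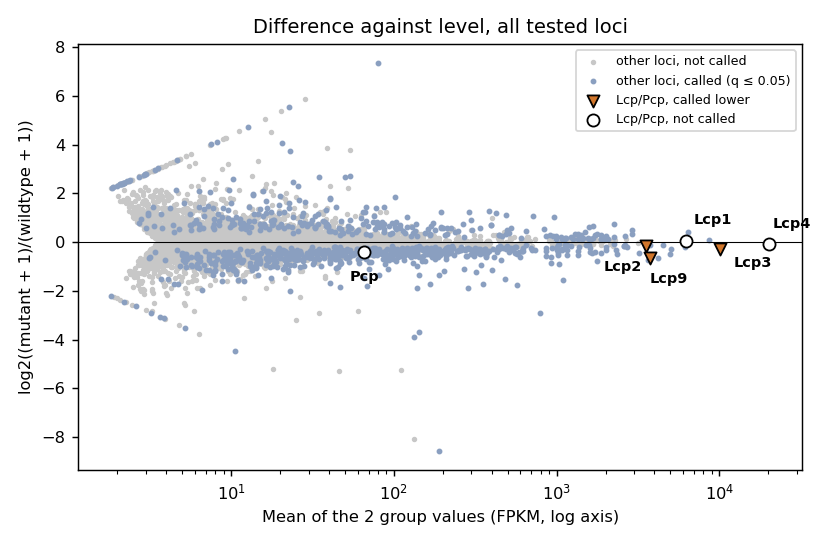
Log2 ratio of mutant-labelled over wildtype-labelled FPKM (pseudocount 1) against the mean of both group values on a log axis, for all 7058 tested loci. The 5 larval Lcp rows lie at the right edge of the plot near 0, with Lcp9 lowest at -0.66, and Pcp lies in the bulk of the loci at -0.40.

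Lcp1 to Lcp4 form a compact cluster of 8381 bases on chromosome arm 2R, between positions 8430115 and 8438495. The start and end of each of these 4 rows equal those of the gene in the Release 6 annotation. Lcp1 and Lcp2 lie on the minus strand, Lcp3 and Lcp4 on the plus strand, so Lcp2 and Lcp3 point away from each other across a gap of 524 bases. All 6 genes have 2 exons, separated by an intron of between 56 and 71 bases. Their coding lengths ranged from 276 nucleotides for Lcp9 to 552 nucleotides for Pcp. Together the 4 cluster genes summed to 41654 FPKM under the wildtype label and to 38700 FPKM under the mutant label, 7.09% less.

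On each strand of the cluster, the outer gene was the more abundant. Lcp4 exceeded Lcp3 1.90-fold in the wildtype-labelled and 2.17-fold in the mutant-labelled group. Lcp1 exceeded Lcp2 1.63-fold in the former and 1.89-fold in the latter. These level ratios have no test, because the table gives no error for them. The sequences of the clustered genes were not compared here, and whether fragments were shared or misassigned between neighbours was not tested. The single values, ranks, level ratios and directions of these genes carry that limit. The larval genes ran, from high to low in wildtype-labelled larvae, Lcp4, Lcp3, Lcp1, Lcp9 and Lcp2, and in mutant-labelled larvae Lcp9 fell below Lcp2.

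This order depends on the transcript length that enters FPKM. Each row of Lcp1 to Lcp4 names 1 of the gene's 2 RefSeq transcripts, and each row spans the longer annotated transcript. The longer and shorter transcripts of Lcp1 measure 1065 and 543 nucleotides, those of Lcp2 927 and 540, those of Lcp3 730 and 513 and those of Lcp4 792 and 527. If all fragments came from the shorter transcripts, and no other length correction applied, the wildtype-labelled levels would be 31265 FPKM for Lcp4, 15602 for Lcp3, 12026 for Lcp1 and 6445 for Lcp2. Lcp9 would then rank below Lcp2 in both groups. The difference between groups within a gene is not altered by this rescaling. Lcp9 has 1 transcript of 394 nucleotides, 1.23 times the 320 bp insert named in the library protocol, so its level is sensitive to the length correction of the software.

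**Figure D3:**
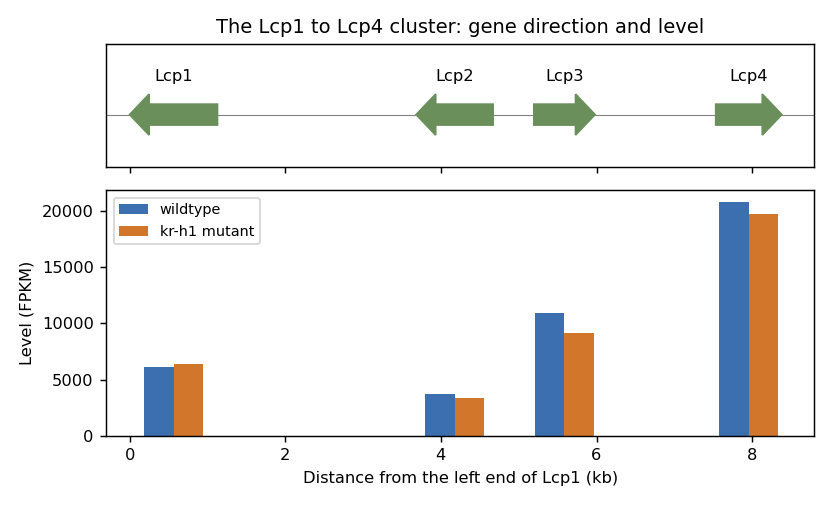
Upper panel, position and direction of transcription of the 4 clustered genes by distance in kb from the left end of Lcp1. Lower panel, FPKM of each gene in the wildtype-labelled and mutant-labelled groups, with 1 value per group. The outer genes Lcp1 and Lcp4 exceed their inner neighbours Lcp2 and Lcp3, and Lcp3 shows the widest gap in FPKM between groups.

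The 6 rows together made up 8.18% of the summed FPKM in the wildtype-labelled and 7.67% in the mutant-labelled group. Without the row of Lcp9 these shares were 7.37% and 7.13%. The FPKM totals of the groups, 566151 and 543224, themselves differed. Scaled to equal totals, the log2 ratios became -0.01 for Lcp4, 0.12 for Lcp1, -0.09 for Lcp2, -0.20 for Lcp3, -0.60 for Lcp9 and -0.34 for Pcp. The signs of all 6 held under each scaling tried, but for Lcp1, Lcp2 and Lcp4 the choice of scaling changed the log2 ratio by more than 1.5 times. The shift with equal totals was small, about 0.06 on the log2 scale for each gene.

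No other row near the larval genes reached their level. Within 20 kb of the Lcp1 to Lcp4 cluster, 10 other rows had values between 0 and 63.3 FPKM. Of the 7 tested, 1 was called lower and 2 higher, beside 8.73% lower and 4.32% higher over all tested loci. Cyp4ad1, a cytochrome P450 gene beside Lcp4, went from 37.4 to 23.4 FPKM (Cuffdiff q-value 0.00235 in the authors' deposited table). The maltase genes Mal-A1 (22.5 to 35.7 FPKM) and Mal-A3 (17.8 to 63.3 FPKM) were called higher. Deposited test statistics were -1.86 for Cyp4ad1, 2.07 for Mal-A1 and 5.77 for Mal-A3. By the normal p-value the call for Mal-A3 held, and those for Cyp4ad1 and Mal-A1 did not. For Lcp9 and Pcp the 20 kb were counted from the ends of the row, which for Lcp9 also spans egg. Around the row of Lcp9, other rows reached at most 239 FPKM (GstE12), above the level of Pcp. Here 11 of 18 rows were tested and 0 were called by Cuffdiff, with 2 at an unadjusted p under 0.05 (Usp15-31 and Reg-5) and 0 by the normal p-value. The row of Pcp spans positions 7013396 to 7023898, more than the gene. Around that row, 2 of 6 tested rows were called lower. The first was uif (uninflatable), which encodes an apical membrane protein of tracheal cells (10.98 to 8.12 FPKM). The other was the row of Caper and milt (38.1 to 31.0 FPKM). Their test statistics of -1.98 and -1.20 give no call by the normal p-value.

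For each gene, the nearest other tested locus over both group values was found. Distance was taken on the log2(FPKM + 1) scale over only 2 values. Nearest to the row of Lcp9 was the row of the fat body protein gene Fbp2 with CG42847 (4571 and 2716 FPKM, distance 0.10). Nearest to Lcp1 was the larval serum protein gene Lsp1gamma (6553 and 5760 FPKM, distance 0.18). The translation elongation factor gene eEF1alpha1 was nearest to Lcp2 (3904 and 3626 FPKM, distance 0.11). The odorant-binding protein gene Obp99b was nearest to Lcp3 (8453 and 8906 FPKM, distance 0.38), although it was called higher. Lcp3 was nearest to Lcp4, but at a distance of 1.45, so no locus was close to Lcp4. Hacd1 was nearest to Pcp (73.7 and 56.5 FPKM, distance 0.02).

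The larval Lcp rows held most of the summed FPKM of the cuticle protein rows listed here, and Pcp added little. The lists may not cover every cuticle protein gene, the row of Lcp9 includes egg, and FPKM depends on transcript length. Over 111 other cuticle protein rows on 3 lists, the summed level was 8199 FPKM under the wildtype label and 7725 FPKM under the mutant label. The 6 rows described here thus held 85.0% and 84.4% of the combined sum. Of the other rows, 40 were at 0 in both groups and 44 were tested, of which 5 were called lower and 6 higher. Over all tested loci 8.73% were called lower and 4.32% higher. The most abundant of them was Cpr47Eg, with 2757 and 2506 FPKM, which was called lower (Cuffdiff q-value 0.0370 in the authors' deposited table). Its test statistic of -1.44 gives no call by the normal p-value.

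Other larval cuticle genes and genes of the CPR family (cuticle proteins with the Rebers-Riddiford domain) were called in both directions. Of 28 tested rows, 4 (14.3%) were lower and 5 (17.9%) higher, with a median log2 ratio of 0.12. Beside these and the list counts below stand 8.73% lower and 4.32% higher over all tested loci. The called lower rows were Cpr67Fa2 (882 to 260.2 FPKM), Lcp65Ag1 (565 to 467 FPKM), Cpr47Ec (601 to 525 FPKM) and Cpr47Eg. The called rows with the largest increases were Lcp65Ag3 (115.3 to 274 FPKM), Lcp65Ag2 (33.1 to 61.1 FPKM), Cpr11A (61.96 to 103 FPKM) and Cpr78Cc (170.4 to 256 FPKM). Cpr67Fa1, the paralogue of Cpr67Fa2, had 4.11 and 73.8 FPKM, the opposite direction, and was not called (Cuffdiff q-value 0.0945 in the authors' deposited table). Cpr67Fa1 and Cpr67Fa2, and likewise Lcp65Ag1, Lcp65Ag2 and Lcp65Ag3, have closely related sequences, so their single values are uncertain. Of the rows called lower, Lcp65Ag1, Cpr47Ec and Cpr47Eg had deposited test statistics of -1.61, -1.52 and -1.44. Of those called higher, Lcp65Ag2 had 1.56 and Lcp65Aa 1.46. All are smaller in size than that of Lcp2 (-2.10), so these calls do not hold by the normal p-value. Among genes listed as pupal or prepupal, 1 of 11 tested rows was called lower and 0 higher. This was Cpr49Ac, with 91.8 and 67.0 FPKM. Edg91, an ecdysone-dependent pupal cuticle gene, was not called at 8.01 and 35.4 FPKM (Cuffdiff q-value 0.237 in the authors' deposited table), while Edg78E had 0.889 and 0.339 FPKM and Edg84A was at 0 in both groups, neither of them tested. In the Tweedle family, a second family of cuticle proteins, 1 of 5 tested rows was called, TwdlX, which was higher (74.2 to 100.3 FPKM). The test statistic of TwdlX, 2.01, gives no call by the normal p-value.

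Genes listed for the synthesis and organisation of chitin, the partner of these proteins, included chitinases and imaginal disc growth factors. They were called lower in 8 of 26 tested rows (30.8%) and higher in 0, with a median log2 ratio of -0.20. Over all tested loci 8.73% were called lower and 4.32% higher. The chitin synthase genes kkv (Cuffdiff q-value 0.0749 in the authors' deposited table) and Chs2 were not called, nor were mmy, Gfat1, Gnpnat and nst. The called rows with the largest decreases were Idgf3, an imaginal disc growth factor of the chitinase family (52.1 to 37.5 FPKM), the chitin-binding protein gene obst-E (433 to 315 FPKM), the chitinase gene Cht7 (22.6 to 16.4 FPKM) and Gfat2, an enzyme at the head of the pathway to the chitin precursor (28.3 to 21.3 FPKM). The chitin deacetylase genes serp and verm were also called lower, as were Idgf4 (235 to 190 FPKM) and Idgf6 (301 to 245 FPKM). Deposited test statistics of Idgf3, Cht7 and Gfat2 were -1.59, -1.71 and -1.46, smaller in size than that of Lcp2 (-2.10). Their calls, like that of Lcp2, do not hold by the normal p-value. Of the 8 rows called lower, obst-E had the statistic largest in size (-3.34). For cuticle tanning, the cross-linking and pigmentation of cuticle, 0 of 10 tested rows were called in either direction by Cuffdiff. Here 1 row, that of stw (straw, a laccase gene), had an unadjusted p under 0.05, and 0 were called by the normal p-value.

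**Figure D4:**
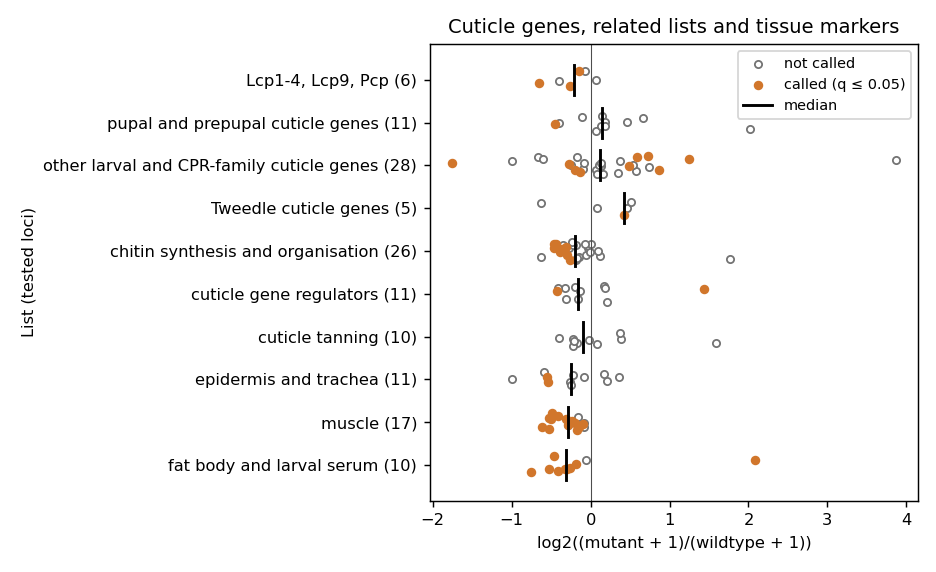
Log2 ratio of every tested row (points, filled where called) and the median (bar) for the 6 cuticle genes, 6 lists of related genes and 3 tissue lists, with the number of tested rows in brackets. The Lcp and Pcp points lie between -0.66 and 0.06, while other cuticle genes spread to both sides of 0.

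Transcription factors that act in the hormone control of cuticle genes were mostly low and uncalled. Of 11 tested rows, 1 was called higher, Kr-h1 itself, and 1 lower, the shared row of Actn and usp (126 to 93.7 FPKM). Over all tested loci 4.32% were called higher and 8.73% lower. Actn encodes alpha-actinin of muscle and usp the partner of the ecdysone receptor, and the row cannot be divided between them. EcR, the ecdysone receptor gene, had 7.87 and 8.97 FPKM, the ecdysone response gene br 13.7 and 10.9 FPKM, Eip74EF 6.46 and 7.43 FPKM and Eip75B 7.21 and 6.16 FPKM. The juvenile hormone receptor gene gce had 4.33 and 3.25 FPKM and the epidermal factor gene grh 6.63 and 7.84 FPKM. The row of ftz-f1, a regulator of prepupal cuticle genes, had 1.63 and 3.37 FPKM and was not tested, and Met had 2.63 and 2.17 FPKM and was not tested either. Hr39 had 6.31 and 5.53 FPKM, vvl 5.19 and 3.64 FPKM and the shared row of Hr78 and Glg1 44.2 and 40.2 FPKM, none of them called. Among the uncalled tested rows, br and vvl had unadjusted p-values of 0.0264 and 0.0492 from Cuffdiff in the authors' deposited table. Blimp-1, Hr4, Hr38, Eip78C, Eip93F, sv and the row of Hr3 had at most 1.08 FPKM in either group and were not tested.

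Marker lists of the tissues in a whole larva were counted beside these genes. Over all tested loci 8.73% were called lower and 4.32% higher. Among loci of at least 1000 FPKM these shares were 33.1% and 24.6%, and many muscle, fat body and midgut rows are of that abundance. Of 17 tested muscle rows 13 were called lower and 0 higher, and their summed level went from 18034 to 14783 FPKM. In fat body and larval serum 8 of 10 tested rows were called lower and 1 higher, with sums of 24201 and 18751 FPKM. For the epidermis and trachea, the tissues that secrete cuticle, 2 of 11 tested rows were called lower and 0 higher, and the sum went from 386 to 291 FPKM. Most of that sum came from Ldh, lactate dehydrogenase, which is not specific to these tissues. Without it the sums were 138.5 and 122 FPKM, with 1 of 10 tested rows lower. Haemocyte rows were called lower in 4 of 8 tested and midgut rows lower in 8 and higher in 7 of 21. Salivary gland and glue rows were called lower in 2 and higher in 2 of 10, and 0 of 2 nervous system rows were called by Cuffdiff or by the normal p-value, with 1 (elav) at an unadjusted p under 0.05. The listed markers at 0 in both groups were sha in epidermis, TpnC41C in muscle, He in haemocytes and ng4 in salivary gland. The part of tissue makeup in the Lcp and Pcp values was not tested.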

How the data were processed

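Polyadenylated RNA of 4 libraries was sequenced in pairs on a MiSeq instrument, according to the labels. TopHat2, Cufflinks and Cuffdiff appear in the submitters' processing notes, and no version, setting, build or strandedness is given in the sources used here. FPKM values were deposited by the authors as 1 value per group. Per the file headers, Cuffdiff also made the deposited log2 fold change, test statistic (a score), p-value and q-value, and the q-value equals a Benjamini-Hochberg adjustment of the p-value over the 7058 tested loci. Another 9135 loci were not tested and 5 listed at 0, ribosomal RNA loci among them, were set aside. The labels do not say whether libraries of a group were separate collections, so p-values measure at most the spread between libraries.

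Of 30529 transcript accessions in the table, 30273 (99.2%) matched NCBI Release 6 symbols. Gene structures came from Ensembl release 115 (BDGP6), and coordinates are 1-based. Log2 ratios use a pseudocount of 1. The genes and the 13 lists were chosen with earlier results of these data known, and lists are described by counts and medians without a test. Rows of the 6 genes were left out of the lists. A planned comparison of the protein sequences of the 6 genes was not run. Named from each list of cuticle, chitin, tanning and hormone-control genes were the up to 4 called rows with the largest change in each direction, besides every hormone-control transcription factor, called neighbours within 20 kb and nearest loci. Genes named beyond this, among them Edg91, Cpr67Fa1, GstE12, Edg78E, Edg84A, serp, verm, kkv, Chs2, mmy, Gfat1, Gnpnat, nst, stw, elav, Usp15-31, Reg-5 and Ldh, were chosen after their values were seen. Lcp65Aa, Idgf4 and Idgf6 were likewise named after their values were seen. The adjustment was tested on simulated data. Computation used scipy 1.17.1, pandas 2.3.3 and numpy 2.4.6 under Python 3.11.15, with plots from matplotlib 3.10.9.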

Additional observations from a re-analysis of the deposited data

How the results depend on the processing

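The log2 ratios of all 6 genes kept their sign with pseudocounts of 0.1 and 10, with equal FPKM totals, with equal totals after leaving out the 20 most abundant loci, and when centred on the median of tested loci (-0.03). They ranged from 0.06 to 0.12 for Lcp1, -0.15 to -0.09 for Lcp2, -0.26 to -0.20 for Lcp3, -0.07 to -0.01 for Lcp4, -0.66 to -0.60 for the row of Lcp9 and -0.40 to -0.34 for Pcp. The calls held at q-value thresholds of 0.01 and 0.1 and with adjustment over loci of at least 10 FPKM. With rows of 1 gene only, 2 genes were called lower, since the row of Lcp9 drops out. An alternative chosen after seeing the data took normal p-values from the deposited test statistic, and Lcp2 (log2 ratio -0.15) then lost its call, leaving 2 genes lower; over all loci this rule called 178 against 921 by the deposited q-value. With only tested rows in the total, the genes held 8.26% of wildtype-labelled and 7.76% of mutant-labelled FPKM. No paired analysis was possible because the table holds 1 value per group, and for the same reason leaving out single libraries was not run. The depth is unknown, so no limit of detection is given.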

Other observations

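The p-values of the authors' deposited table were smaller than the two-sided normal p-value of the statistic in the same row for 6819 of the 6965 tested loci that have a statistic (97.9%). For Lcp4, the statistic of -1.07 stands beside a deposited p-value of 0.0405, where the normal p-value is 0.284. For Pcp, -1.01 stands beside 0.0401, with a normal p-value of 0.314, and for Lcp1, 0.912 stands beside 0.0668, with 0.362. The 178 loci called from normal p-values included 175 of the 921 called in the authors' deposited table. Of these 178 loci, 138 were lower and 40 higher in mutant-labelled larvae. The settings that link statistic and p-value are not given in the sources used here.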
